A study of Mus musculus with 10 samples.

Results

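The gamma-chain cytokine receptors are the cell surface chains that bind IL-2, IL-4, IL-7, IL-9, IL-15 and IL-21 and that either are the common gamma chain or pair with it. The 8 genes that encode them in mouse (*Il2rg*, *Il7r*, *Il4ra*, *Il21r*, *Il9r*, *Il2ra*, *Il2rb* and *Il15ra*) were chosen by name from the 24062 gene rows of each count table. Of these, 7 passed the filter on low values that left 12221 genes for testing, and *Il2rb* did not. Their RNA was followed in 10 RNA-seq libraries from C57BL/6J marrow progenitors (LSK cells, lineage negative and positive for SCA1 and KIT) that were cultured with the cytokine mix SCF, FLT3L, IL-6 and IL-11. The 6 DN libraries, 2 for each stage, came from cells grown on a high density of the immobilized Notch ligand Delta1 and sorted as early T cell precursors. DN1 cells (KIT++ CD44+ CD25-) were sorted from cultures that received no IL-7, and DN2a (KIT++ CD44+ CD25+) and DN2b cells (KIT+ CD44lo CD25+) from cultures to which IL-7 was added. The other 4 libraries were the no Notch control, in which progenitors were grown on human IgG1 in place of the ligand for 14 days. The control is labelled IgG, its 4 libraries are titled D1, D2, R1 and R2 with no explanation of the letters, and no sort or IL-7 is described for it. Per the methods IL-7 was added at day 14, so DN2a and DN2b cells were in culture for longer than the control. Ligand, sort and, for DN2a and DN2b, IL-7, the CD25 gate and time in culture change together, so their parts in any difference cannot be told apart.

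Each of these receptors signals through the common gamma chain, the product of *Il2rg*, which carries the kinase JAK3, and through a second chain that carries JAK1. The kinases phosphorylate STAT proteins, STAT5 after IL-2, IL-7, IL-9 and IL-15, STAT6 after IL-4 and STAT3 after IL-21, and STAT5 induces both survival genes such as *Bcl2* and feedback inhibitors such as *Cish*. In the thymus the IL-7 receptor supports the survival and expansion of the earliest T cell precursors, and CD25, the IL-2 receptor alpha chain encoded by *Il2ra*, is the surface protein by which the DN2 stages are recognised.

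The libraries held 12354635 to 35367925 reads assigned to genes. Values are given as CPM, reads per 1000000 reads on genes after each library's total was adjusted by the trimmed mean of M values (TMM). The early T marker list (10 genes, among them *Cd3e*, *Tcf7* and *Bcl11b*) summed to 404.9 to 4275 CPM in the DN libraries and to 3.03 to 9.92 CPM in the control. All 13 genes of a myeloid list, from the granule gene *Mpo* to the macrophage genes *Cd68* and *Mmp12*, were higher in every IgG library than in every DN library, and the list summed to 26700 to 78030 CPM in IgG, 2507 and 144.8 CPM in DN1 and 14.8 to 45.6 CPM in the DN2 stages. Here and throughout, the values of a DN stage are given for replicate 1 and then replicate 2, the libraries with the earlier and the later date in their titles. DN1 replicate 1 thus stood apart, and results that rest on it are given with and without it. In these bulk libraries fewer cells of a type and less RNA per cell cannot be told apart. The study's methods describe the replicates of a stage as coming from separate isolates of LSK cells, while the labels do not tie a library to an isolate.

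The stretch of genome before 4 of the genes is shown because 2 of them were higher and 2 lower in every DN library than in every control library, and because promoter CpG content is one property on which they differ. The windows are RefSeq sequence (GRCm38.p6, the patch release of mm10), 5′ to 3′ on the strand of the gene, with each CpG in capitals. Each is the 250 bases before the RefSeq start, except that *Il4ra* is cut to the 99 bases before its start in the GENCODE vM21 annotation.
*Il2ra* chr2:11642542-11642791 (+): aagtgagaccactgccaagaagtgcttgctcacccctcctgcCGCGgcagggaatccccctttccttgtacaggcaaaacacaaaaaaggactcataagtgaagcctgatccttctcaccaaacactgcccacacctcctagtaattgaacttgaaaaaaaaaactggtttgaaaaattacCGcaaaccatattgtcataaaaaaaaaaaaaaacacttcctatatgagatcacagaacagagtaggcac
*Il9r* chr11:32200280-32200529 (-): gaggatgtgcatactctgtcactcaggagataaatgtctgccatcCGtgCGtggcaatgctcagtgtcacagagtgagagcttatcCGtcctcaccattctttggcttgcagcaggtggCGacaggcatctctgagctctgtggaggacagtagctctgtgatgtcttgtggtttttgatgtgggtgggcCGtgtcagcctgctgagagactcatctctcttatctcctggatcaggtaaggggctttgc
*Il21r* chr7:125603179-125603428 (+): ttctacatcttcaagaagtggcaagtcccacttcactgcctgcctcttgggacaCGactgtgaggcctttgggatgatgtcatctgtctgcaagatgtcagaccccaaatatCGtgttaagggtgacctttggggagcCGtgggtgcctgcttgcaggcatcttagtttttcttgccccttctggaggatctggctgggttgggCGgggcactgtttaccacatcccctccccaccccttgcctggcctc
*Il4ra* chr7:125552021-125552119 (+): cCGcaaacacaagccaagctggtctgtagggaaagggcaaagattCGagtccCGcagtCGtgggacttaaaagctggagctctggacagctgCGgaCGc
The full window of *Il4ra* held 17 CpG, an observed to expected ratio of 0.843 that was above that of 84.2% of the 32851 promoters of the same length. Values within the middle of all promoters were found before *Il2ra* (3 CpG, ratio 0.284, above 41.0% of promoters), *Il9r* (5 CpG, ratio 0.292, above 41.9%) and *Il21r* (4 CpG, ratio 0.207, above 30.9%), against a median of 6 CpG and a ratio of 0.374 with quartiles of 0.167 and 0.723. The study took a longer promoter sequence and described the CpG content of *Il2ra* as particularly low. Its value and the one here cover stretches of different length. The window of *Il7r*, not printed because it lies inside the annotated gene, had 1 CpG and a ratio of 0.0844, above 12.7% of promoters. The letters TGGGAA, the core recognised by the Notch partner RBPJ, were searched on both strands and were found before *Il2rg* only among the 7 genes with a RefSeq window, at -241 from the start, against 21.6% of all promoters. The STAT letters TTCNNNGAA were found in the window of *Il7r* only, against 7.02% of all promoters. The match was at -142 from the RefSeq start and so inside the gene as GENCODE annotates it. The GATA letters AGATAA were found before *Il9r* only, at -223 and on the other strand at -30, against 9.99%, and the RUNX letters TGTGGT before *Il2rg*, *Il9r* and *Il21r*, against 14%. No letters of one motif overlapped those of another in these windows. These matches describe letters in a window of 250 bases and nothing more.

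The common chain differed little between control and precursors. *Il2rg* (chromosome X, 101264378 to 101268255, minus strand, mm10) stood at 188, 208, 212 and 131 CPM in the 4 IgG libraries. It was 188 and 182 CPM in DN1, then 135 and 156 CPM at the DN2a and 196 and 218 CPM at the DN2b stage. The IgG libraries covered the whole range of the DN libraries but for the highest DN2b value. The log2 fold change of DN1 over IgG was 0.00 with a 95% interval of -0.52 to 0.52, and that of DN2b over IgG was 0.16 with an interval of -0.35 to 0.68, so that changes within these intervals are not excluded. Both DN2b libraries lay above both DN2a libraries, a log2 difference of 0.51 (interval -0.09 to 1.11) that did not pass the test. Transcripts of the 2 kinases of the receptor complex were likewise not called in any comparison. *Jak1* ranged from 171.5 to 284.3 CPM and *Jak3*, which binds the common chain, from 63.7 to 136.7 CPM over the 10 libraries.

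**Figure D1:**
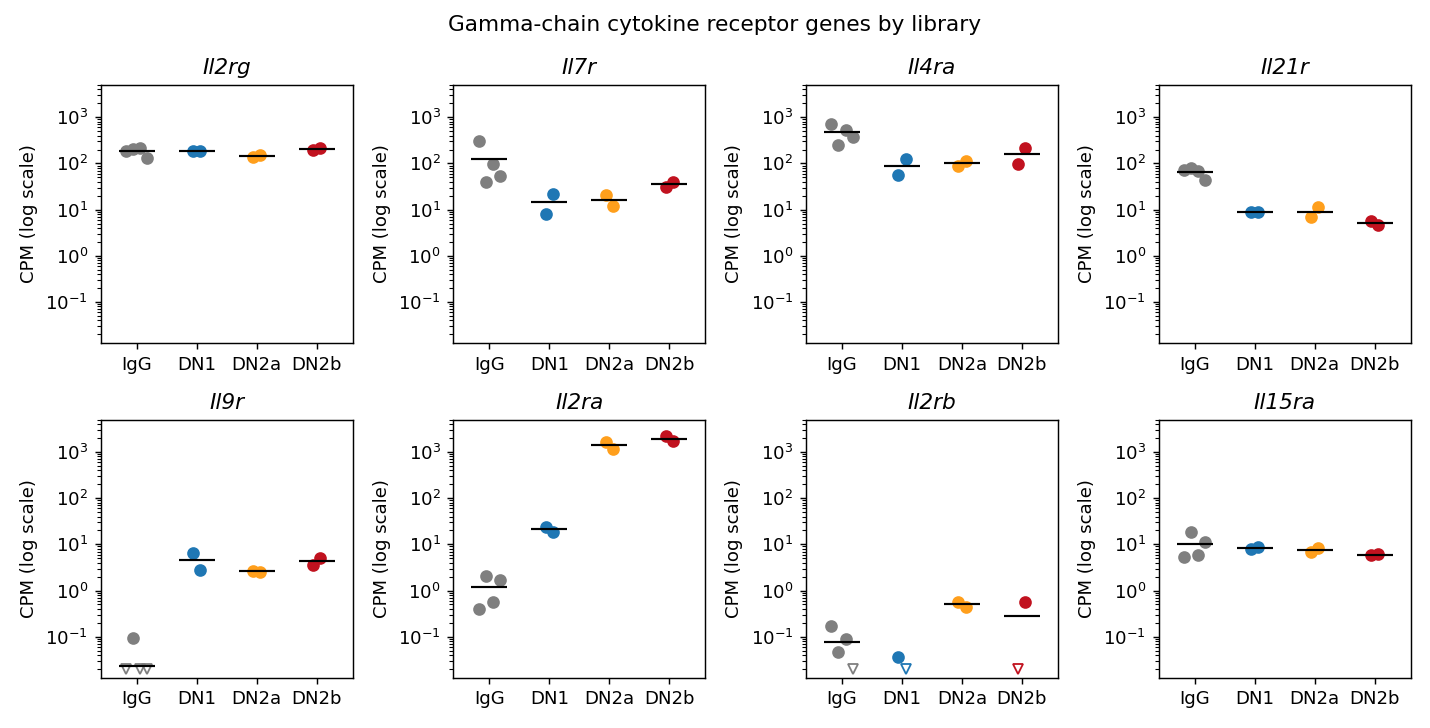
Each panel plots 1 receptor gene, with its level in CPM on a log axis, a filled point for each library (4 IgG, 2 each of DN1, DN2a and DN2b), an open triangle at the bottom for a library with 0 reads and a bar at the group mean. *Il2rg* stays between 131 and 218 CPM, *Il4ra*, *Il21r* and *Il7r* are highest in IgG, and *Il9r* and *Il2ra* are lowest there.

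*Il7r*, the IL-7 receptor alpha chain, was lower in DN1 than in the control. It was not called between the DN stages, of which the DN2 cells came from cultures with IL-7. *Il7r* (chromosome 15, 9505788 to 9530176, minus strand) was 306, 40.0, 97.2 and 52.6 CPM in IgG libraries D1, D2, R1 and R2. It was 7.94 and 21.5 CPM in DN1, then 20.5 and 12.0 CPM at the DN2a and 31.0 and 39.4 CPM at the DN2b stage. All 6 DN libraries were below all 4 control libraries, but the margin between the highest DN2b and the lowest IgG library was under 1 CPM. The mean in DN1 was 8.42-fold lower than in IgG (log2 fold change -3.08, SE 0.90, Benjamini-Hochberg adjusted p = 0.0288 by the quasi-likelihood test of edgeR). This call was lost without DN1 replicate 1 (log2 fold change -2.52, adjusted p = 0.146), without DN1 replicate 2 (adjusted p = 0.0728) and when only IgG and DN1 were fitted (adjusted p = 0.0596). The 3.52-fold lower mean in DN2b did not pass the edgeR test (log2 fold change -1.82, interval -3.68 to 0.05, adjusted p = 0.104) and did pass with DESeq2 (adjusted p = 0.0293). Without library D1, the highest for this gene, the log2 fold change was -2.11 in DN1 (adjusted p = 0.025) and -0.85 in DN2b (adjusted p = 0.217). Without DN1 replicate 2 it was -3.96 in DN1. DN2b exceeded DN1 in the earlier and in the later libraries, by a log2 difference of 1.26 whose interval of -0.76 to 3.27 includes 0.

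Some known target genes of STAT5 were called between the DN2 stages and DN1, in DN2b 3 of 12 feedback regulators and 1 of 8 other targets. *Cish*, which encodes a feedback inhibitor of STAT5 signaling, was 1.93 and 1.30 CPM in DN1, then 37.7 and 45.3 CPM at the DN2a and 54.2 and 64.0 CPM at the DN2b stage. *Socs2*, another feedback inhibitor, was 0.26 and 1.10 CPM in DN1, then 65.8 and 53.4 CPM at the DN2a and 102.5 and 101.4 CPM at the DN2b stage. *Bcl2*, the survival gene, was 12.9 and 7.23 CPM in DN1, then 71.2 and 72.0 CPM at the DN2a and 110.4 and 131.7 CPM at the DN2b stage. For these 3 genes every DN2 library was above every DN1 library and every IgG library. From DN1 to DN2b *Cish* rose by 5.18 on the log2 scale (adjusted p = 0.0111), *Socs2* by 7.27 (adjusted p = 0.0034) and *Bcl2* by 3.58 (adjusted p = 0.0034) by edgeR. *Socs1*, the inhibitor of JAK kinases, rose by 5.35 (adjusted p = 0.0156), from 0.93 and 0.90 CPM in DN1 to 27.1 and 47.9 CPM in DN2b. Of the 12 feedback regulators 3 rose and none fell in this comparison by edgeR (4 and 2 by DESeq2), the median log2 fold change of the list was 0.48 beside -0.02 over all genes tested, and 1.91% of all genes were called. From DN1 to DN2a 2 of the 12 rose, *Cish* by 4.67 (adjusted p = 0.0408) and *Socs2* by 6.49 (adjusted p = 0.015), and among 8 other STAT5 target genes *Bcl2* alone rose, by 2.83 (adjusted p = 0.0204), where 0.401% of all genes were called. Without DN1 replicate 1 the count of feedback regulators called fell to 1 for DN2b and to 0 for DN2a against DN1, and it was also 0 for DN2a when either DN2a library was left out. The call of *Socs1* was lost without DN1 replicate 1 (adjusted p = 0.1254), DN1 replicate 2 (0.0503) or DN2b replicate 2 (0.0667), and that of *Bcl2* in DN2a without DN1 replicate 1 (0.0605) or either DN2a library (0.15 and 0.148), with a block by year (0.0576), with scaling by library size (0.0506) and when only the 2 groups were fitted (0.0626). The calls of *Socs2* and *Bcl2* in DN2b against DN1 were kept in each of the 18 alternatives run. *Cish* in DN2b was lost without DN1 replicate 1 (adjusted p = 0.0739) and in DN2a was kept in 10 alternatives, and *Socs2* in DN2a was lost without DN1 replicate 1 (0.0605) or either DN2a library (0.145 and 0.0892).

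**Figure D2:**
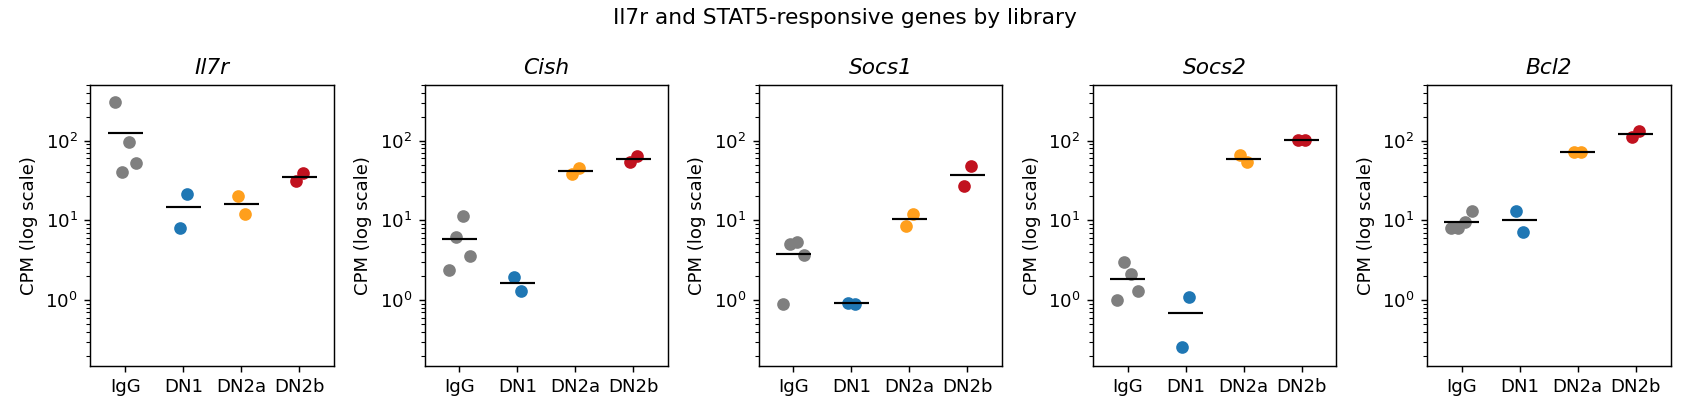
The panels show *Il7r*, the feedback regulators *Cish*, *Socs1* and *Socs2* and the survival gene *Bcl2* in CPM on a log axis, with a point for each library and a bar at the group mean. *Cish* and *Socs2* exceed 37 CPM in all 4 DN2 libraries and stay under 12 CPM elsewhere, while *Il7r* lies between 7.94 and 39.4 CPM in all DN libraries.

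*Il4ra* and *Il21r* were both lower in DN1 and in DN2b than in the control. The 2 genes are neighbours on chromosome 7 (*Il4ra* 125552120 to 125579474 and *Il21r* 125603429 to 125633570, both on the plus strand), 23954 bases apart with no annotated gene between them. *Il4ra*, which encodes the alpha chain of the IL-4 and IL-13 receptors, was 728, 250.1, 531 and 381 CPM in IgG. It was 57.5 and 122 CPM in DN1, then 89.1 and 113 CPM at the DN2a and 98.9 and 214 CPM at the DN2b stage. The control and DN libraries did not overlap, and in each DN stage replicate 2, the later library, was above replicate 1. The mean was 5.26-fold lower in DN1 (log2 fold change -2.39, SE 0.54, adjusted p = 0.0108) and 3.02-fold lower in DN2b (log2 fold change -1.59, SE 0.52, adjusted p = 0.0334, both edgeR). Without DN1 replicate 1 the first call was lost (adjusted p = 0.0682). The second was lost without DN2a replicate 1 (adjusted p = 0.0518), DN2b replicate 1 (0.219), library D1 (0.0599) or library R1 (0.0649), and with D1 and D2 as the only control (0.0885).

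*Il21r*, the IL-21 receptor, was 71.6, 81.1, 68.3 and 44.3 CPM in IgG. It was 8.72 and 8.97 CPM in DN1, then 6.98 and 11.2 CPM at the DN2a and 5.67 and 4.54 CPM at the DN2b stage, so that the 2 sets of libraries were far apart. The mean was 7.50-fold lower in DN1 (log2 fold change -2.91, SE 0.34, adjusted p = 0.000709) and 13.0-fold lower in DN2b (log2 fold change -3.70, SE 0.36, adjusted p = 0.000161, both edgeR). Both calls were kept in each of the 18 alternatives run. Both DN2b libraries lay below those of DN1 and DN2a, but the differences of -0.79 (interval -1.58 to 0.00) and -0.83 (interval -1.62 to -0.03) on the log2 scale did not pass the adjusted test (adjusted p = 0.361 and 1).

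The control libraries in which these genes were high also held the myeloid transcripts, and the part of that in the result was not tested. Within the control the orders differed. *Il7r* was highest in library D1, which had a myeloid sum of 36460 CPM, and lowest in D2, which had the highest sum of 78030 CPM. Of the 13 myeloid genes 5 were highest in D1, among them *Mmp12*, *Cd68* and *Msr1* of macrophages, 6 in D2, among them the neutrophil granule genes *Mpo* and *Elane*, and 2 in R1. Like *Il7r*, *Il4ra* was highest in D1 (728 CPM) and lowest in D2 (250.1 CPM). *Il21r* was highest in D2 and lowest in R2, the libraries with the highest and the lowest myeloid sum.

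**Figure D3:**
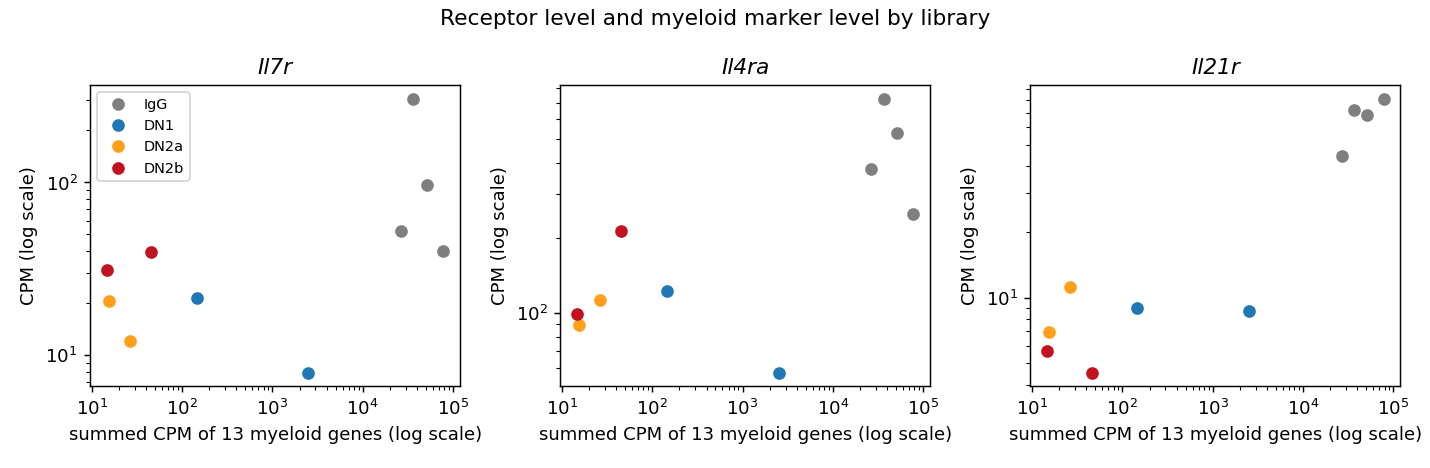
The panels plot *Il7r*, *Il4ra* and *Il21r* in CPM against the summed CPM of 13 myeloid genes, both on log axes, with 1 point for each of the 10 libraries coloured by group. The 4 IgG points lie apart at 26700 to 78030 CPM of myeloid transcripts, and *Il21r* there is 44.3 to 81.1 CPM against 4.54 to 11.2 CPM in the DN libraries.

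*Il9r*, the IL-9 receptor, moved the other way. It had 0, 2, 0 and 0 reads in the 4 IgG libraries, which is at or under the limit of 3 reads that a count of 0 allows. In the DN libraries it was low but present, with 6.38 and 2.79 CPM in DN1, then 2.65 and 2.53 CPM at the DN2a and 3.604 and 5.02 CPM at the DN2b stage. Every DN library was above every control library. Set against that limit in the control, DN1 was at least 37.7-fold and DN2b at least 35.5-fold higher (adjusted p = 0.00121 and 0.000755, edgeR), and both calls were kept in the 18 alternatives run. Without DN1 replicate 1 the bound for DN1 was at least 23.0-fold. The DN stages did not differ by the test, and the log2 difference of DN2b and DN1 was -0.09 with an interval of -2.18 to 2.001. Mast cells and basophils also express *Il9r*, and the sum of 8 of their marker genes was 2372 and 594.5 CPM in DN1, 260.4 to 582.6 CPM in the DN2 stages and 35.0 to 181.5 CPM in IgG. *Cpa3*, the mast cell carboxypeptidase, made most of the sum in DN2b, at 256.8 and 453.5 CPM against 8.57 to 69.3 CPM in IgG (log2 fold change 3.29, adjusted p = 0.00755, edgeR), while 4 of the 8, *Fcer1a*, *Ms4a2*, *Cma1* and *Tpsb2*, were at or under 3 reads in both DN2b libraries. Of the 8 genes 5 were higher and 1 lower in DN1 than in IgG, beside 14.3% and 17% of all genes tested. *Gata2*, among the 5, had a log2 fold change of 3.27, and of 0.72 without DN1 replicate 1. In DN2b *Cpa3* was higher and 5 were lower than in IgG, beside 19.9% and 22.5% of all genes. The part of such cells in the level of *Il9r* was not tested. *Il9r* lies on chromosome 11 (32187541 to 32200279, minus strand).

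*Il2ra* was the gene with the widest range. It encodes CD25, on which the DN stages were sorted, so its difference between DN1 and the DN2 stages is given as a description. No test of that difference is read as a result. It was 0.39, 2.08, 0.56 and 1.68 CPM in IgG, 23.2 and 19.0 CPM in DN1, then 1623 and 1171 CPM at the DN2a and 2177 and 1729 CPM at the DN2b stage. DN1 cells, which were sorted as CD25 negative, were above all 4 control libraries, with a mean 17.9-fold higher (log2 fold change 4.15, SE 0.53, adjusted p = 0.000989, edgeR). The 2 DN2 stages shared the CD25 gate and did not pass the test against each other (log2 difference 0.48, interval -0.86 to 1.83). *Il2ra* (chromosome 2, 11642807 to 11693193) and *Il15ra* (11705290 to 11734317), both on the plus strand, are 12096 bases apart with no annotated gene between them, and their patterns were unlike. *Il15ra*, the chain that presents IL-15, was 5.43, 19.0, 5.84 and 11.1 CPM in IgG and 5.94 to 8.88 CPM in the DN libraries, which the control range enclosed. Its log2 fold change was -0.31 in DN1 (interval -1.46 to 0.83) and -0.78 in DN2b (interval -1.96 to 0.39) over IgG, neither past the test.

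*Il2rb* encodes the signaling chain shared by the IL-2 and IL-15 receptors and was close to the limit of detection throughout. It had 3, 1, 3 and 0 reads in IgG, 1 and 0 in DN1, then 16 and 6 at the DN2a and 0 and 7 at the DN2b stage, which is at most 0.57 CPM. In DN2a, where *Il2ra* reached 1623 CPM, this was at least 3.91-fold higher than the limit in DN1, a value with no test since the gene did not pass the filter. *Il2rb* (chromosome 15, 78479256 to 78495271, minus strand) had no RefSeq window.

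In counts, 5 of the 7 tested receptor genes were called in DN1 against IgG, 2 higher and 3 lower, where 31.4% of all genes tested were called, 14.3% higher and 17% lower. In DN2b against IgG 4 were called, 2 higher and 2 lower, against 42.5% of all genes (19.9% higher and 22.5% lower), so that the receptor genes cannot be read as changing more often than other genes. The median log2 fold change of the 7 genes was -0.31 in the first and -0.78 in the second comparison, beside 0.01 and -0.05 over all genes tested. When all 6 DN and all 4 IgG libraries were compared, 2 genes lay wholly above (*Il2ra* and *Il9r*), 3 wholly below (*Il7r*, *Il4ra* and *Il21r*) and 2 overlapped, and of all genes 17.4% lay wholly above, 20.7% wholly below and 38.1% either way. These comparisons share the 4 control libraries. Between the stages 1 receptor gene was called, *Il2ra*, in DN2a against DN1 and in DN2b against DN1. The CD25 gate fixed its difference from DN1, so these calls are not read as a result. The other 6 tested receptor genes were not called in these comparisons, where 0.196% and 1.01% of all genes were called higher. In DN2b against DN2a no receptor gene was called by edgeR or by DESeq2, 1 (*Il21r*) had an unadjusted p under 0.05, and of all genes 0% were called by edgeR, 29 genes by DESeq2, and 2.74% had an unadjusted p under 0.05.

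**Figure D4:**
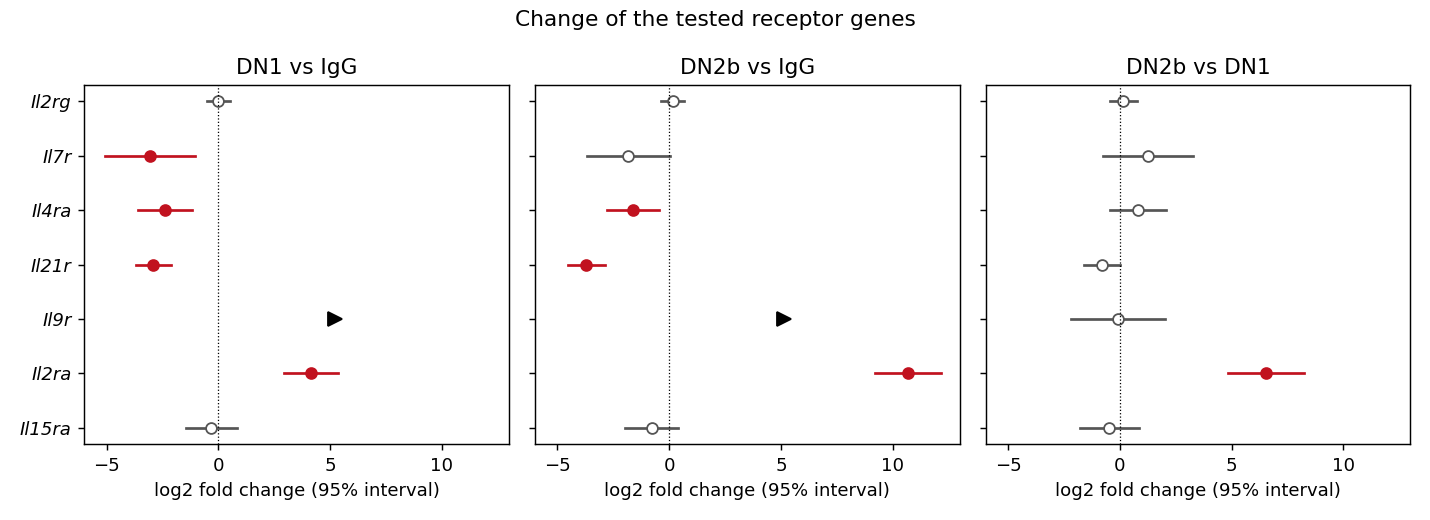
The log2 fold change of the 7 tested genes is plotted for 3 comparisons, with 95% intervals as lines, filled red points for genes past an adjusted p of 0.05, open points for the others and black arrowheads for lower bounds. *Il9r* is drawn at its bound of 5.24 (DN1) and 5.15 (DN2b) over IgG. The red point of *Il2ra* in DN2b over DN1 is not read as a result, because the cells were sorted on its protein.

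Per kilobase of exon, the order of the chains differed between control and precursors. In IgG, *Il4ra* (78.7 ± 34.2 CPM per kb, SD, n = 4) and *Il2rg* (77.5 ± 15.6) led and did not differ beyond their spread, followed by *Il7r* (26.6 ± 26.5) and *Il21r* (19.95 ± 4.72), which also overlapped. *Il15ra* (2.32 ± 1.42) and *Il2ra* (0.206 ± 0.145) came next. In DN1, *Il2rg* (77.5 ± 1.59, n = 2) stood well above *Il4ra* (15.0 ± 7.62), and below them *Il7r* (3.16 ± 2.06) overlapped both *Il2ra* (3.69 ± 0.525) and *Il21r* (2.66 ± 0.0549), which did not overlap each other. In both DN2 stages *Il2ra* was first, at 245 ± 56.0 CPM per kb in DN2a and 342 ± 55.4 in DN2b, and *Il2rg* second, at 60.8 ± 6.23 and 86.8 ± 6.45. *Il7r* followed *Il4ra* with 3.49 ± 1.28 in DN2a, where it overlapped *Il21r* (2.74 ± 0.90), and 7.54 ± 1.27 in DN2b. Per kb and within a library, the ratio of *Il7r* to the common chain was 0.0982 to 0.832 in IgG and 0.0217 to 0.0924 in the DN libraries. The ratio of *Il4ra* to the common chain was 0.477 to 1.54 in IgG and 0.122 to 0.39 in the DN libraries, and both ratios were without overlap between control and DN.

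**Figure D5:**
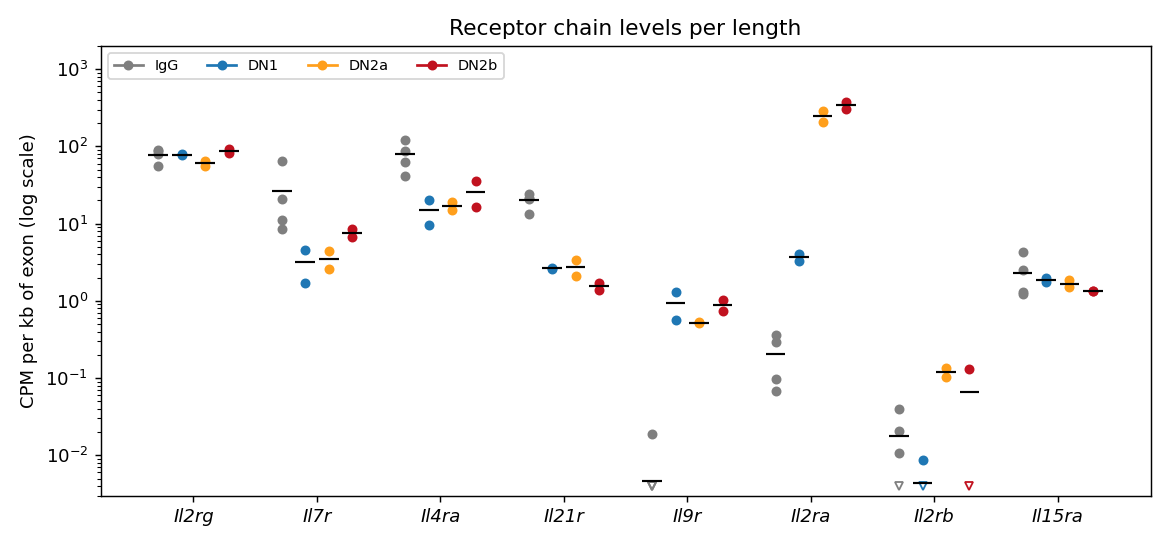
Levels of the 8 genes per kilobase of exon are plotted on a log axis for IgG, DN1, DN2a and DN2b, with a point for each library, an open triangle for 0 reads and a bar at the mean. The common chain *Il2rg* has group means of 60.8 to 86.8 CPM per kb, while *Il2ra* rises from 0.206 in IgG to 342 in DN2b.

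Of 3 chains that pair with these receptors in other combinations 2 passed the filter, and of these 1 was lower in DN1 and 2 were lower in DN2b than in IgG, where 17% and 22.5% of all genes tested were lower. *Il13ra1*, which joins *Il4ra* in the second type of IL-4 receptor, was 59.6, 113, 42.0 and 43.3 CPM in IgG and 0.04 to 2.87 CPM in the DN libraries. It fell by 5.90 on the log2 scale in DN1 (adjusted p = 0.00722) and by 5.10 in DN2b (adjusted p = 0.00788, both edgeR against IgG). The value in DN1, where the libraries were at 0.04 and 2.19 CPM, was -10.56 without DN1 replicate 2 and -4.88 without DN1 replicate 1, the ends of its range over 18 alternatives, in each of which it was called. The call in DN2b was lost without DN2b replicate 1 (adjusted p = 0.0701). *Crlf2*, which pairs with *Il7r* in the receptor for TSLP, fell by 1.49 in DN2b (adjusted p = 0.0069, and 0.0544 without DN2b replicate 1) and was not called in DN1. *Il13ra2*, a decoy receptor, had 0 reads in each library.

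Among 8 ligands of these receptors only *Il15* and *Il4* passed the filter. *Il15* was 7.96, 13.0, 5.29 and 4.67 CPM in IgG and 0.40 to 2.67 CPM in the DN libraries, and it fell by 3.74 on the log2 scale in DN2b (adjusted p = 0.00676, and 0.0519 without DN2b replicate 2) and by 2.23 in DN1 (adjusted p = 0.0459, edgeR). The DN1 call was kept in 5 of 18 alternatives, with an adjusted p of up to 0.198. *Il4* was at most 0.23 CPM in IgG and 0.80 to 5.81 CPM in the DN libraries. It rose by 4.08 in DN1 (adjusted p = 0.014) and by 4.75 in DN2b (adjusted p = 0.00542), and these calls were lost without DN1 replicate 1 (adjusted p = 0.118) and without DN2b replicate 2 (adjusted p = 0.0734), and both with D1 and D2 as the only control (adjusted p = 0.108 and 0.0621). *Il7* did not pass the filter and was at most 0.75 CPM in any library.

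Of the 9 JAK and STAT genes none was higher than in IgG by edgeR, and DESeq2 called 1 higher in DN2b. In DN1 3 were lower than in IgG, among them the IL-4 effector *Stat6* (log2 fold change -1.36) and *Tyk2* (-0.68), and in DN2b 4 were lower, among them *Stat6*, *Tyk2* and *Stat3* (-0.70). Of all genes tested, 17% were lower in DN1 and 22.5% in DN2b. *Stat6* was 275, 139.7, 259 and 196 CPM in IgG and 57.0 to 87.5 CPM in the DN libraries, with adjusted p of 0.00828 in DN1 and 0.00168 in DN2b (edgeR), and the first was lost without DN1 replicate 2 (adjusted p = 0.0605). *Tyk2* in DN1 was called in 13 of 18 alternatives: it was lost without DN1 replicate 2 or the R1 library, with D1 and D2 as the only control, with only the 2 groups in the fit, and with scaling by library size alone (adjusted p = 0.193). The call of *Stat3* in DN2b was lost without either DN2b library. *Stat5a* was not called by edgeR, with log2 fold changes of 0.98 in DN1 (interval 0.10 to 1.85, adjusted p = 0.0841) and 1.05 in DN2b (interval 0.18 to 1.93, adjusted p = 0.054), and it was called in 2 and 5 of 18 alternatives. None of the 9 was called between DN stages. The list's median log2 fold change was -0.16 in DN1 and -0.47 in DN2b over IgG, beside 0.01 and -0.05 over all genes tested.

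Against IgG 4 of the 12 feedback regulators were higher and 3 lower in DN2b, beside 19.9% and 22.5% of all genes tested. *Socs2* (log2 fold change 5.78), *Cish* (3.33), *Socs1* (3.32) and *Ptpn2* (1.28) rose, and *Ptpn6* (-2.01), *Socs3* (-1.77), the inhibitor induced by STAT3, and *Sh2b3* (-1.55) fell, of which *Socs3* was lost without DN2b replicate 1 (adjusted p = 0.0677, edgeR). In DN1, without added IL-7, 4 of the 12 fell and none rose by edgeR, where 17% of all genes fell and 14.3% rose. Scaled by library size 1 fell and 2 rose, and without library D2 2 fell and 1 rose. *Socs3* fell by 2.52 on the log2 scale (adjusted p = 0.0026, edgeR) and was called in each of 18 alternatives, whereas *Socs1*, *Cish* and *Ptpn6* were called in 6, 7 and 4 of them. Of the 8 other STAT5 targets *Bcl2* (3.66) and the kinase gene *Pim2* (3.32) rose and *Mcl1* (-1.74) fell in DN2b, and *Mcl1* alone was called in DN1 (-1.59), beside 19.9% of all genes higher and 22.5% lower in DN2b and 17% lower in DN1. *Pim2* was lost without DN2b replicate 2 (adjusted p = 0.0722). Among 15 tested chains of other class I cytokine receptors, 3 were higher and 5 lower in DN1 than in IgG, beside 14.3% and 17% of all genes, and 3 were higher and 8 lower in DN2b, beside 19.9% and 22.5%. The higher ones were in both cases *Il12rb2* (4.81 in DN1 and 4.35 in DN2b), *Il27ra* (3.16 and 2.93) and *Il12rb1* (2.23 and 2.17), which encode receptor chains for IL-12 and IL-27. The summed level of 11 NK and innate lymphoid cell markers was also higher than in the control. It was 7.66 to 17.4 CPM in IgG, 228.8 to 397.5 CPM in DN1 and 2561 to 4165 CPM in DN2b. From DN1 to DN2b, where this sum rose, the log2 fold changes were -0.46 for *Il12rb2*, -0.23 for *Il27ra* and -0.06 for *Il12rb1*, none of them called. *Gzma*, a granule protease, made most of the sum in each DN library, while *Eomes* and *Ncr1*, a transcription factor and a receptor of NK cells, were at most 0.26 and 1.11 CPM in any library. Of the 7 markers tested 3 were higher in DN1, and 2 were higher and 1 lower in DN2b, and the part of such cells in the receptor levels was not tested. *Il12rb1* in DN2b was lost without DN2b replicate 1 (adjusted p = 0.0621), and with D1 and D2 as the only control it was lost in both DN2b (adjusted p = 0.0678) and DN1 (adjusted p = 0.0736). Among the lower ones in DN2b, *Csf3r* (the G-CSF receptor), *Csf2rb2* (the mouse IL-3 receptor beta chain) and *Il6ra* (the receptor for IL-6, which was in every culture) had at most 3 reads in each DN2b library and were at least 947-fold, at least 913-fold and at least 202-fold lower than in IgG. The median log2 fold change of these 15 was -1.60 in DN1 and -3.05 in DN2b over IgG, or -2.65 in DN2b with genes at the floor set to their bound.

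The genes whose level over the 10 libraries was most like that of each receptor gene were found by Pearson's r of log2 CPM. The libraries share their groups, so r mostly describes the pattern over groups. *Il21r* was closest to *Dpep2* (r = 0.991), *Rasa4* (0.990) and *Sdc3* (0.990), and *Il4ra* to *Soat1* (0.989), *Mtmr6* (0.982) and *Sbf2* (0.981). *Il7r* was closest to *Cltc* (0.974), *Nrp1* (0.972) and *Tmbim1* (0.969). *Il9r* was closest to *Ptprcap* (0.988), *Jakmip1* (0.985) and *Tespa1* (0.984), and *Il2ra* to *Kbtbd11* (0.986) and *Mmp17* (0.982). *Il15ra* reached 0.962 with *Fam107b*, 0.943 with *Fut4* and 0.908 with *Cd79b*. *Il2rg*, which varied least, reached only 0.828 with *Fam214a*, 0.803 with *Gm19705* and 0.799 with *Dyrk1b*.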

How the data were processed

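RNA was extracted with a Qiagen column kit and libraries were prepared with a stranded total RNA kit, per the labels. The authors aligned the first 36 bases of read 1 to mm10 with TopHat (2.12) and counted reads per gene symbol with HTSeq (0.6.1p1), and the deposited values are raw counts. The annotation used for counting and its strand setting are not given in the sources used here. The 3 GENCODE models that overlap *Il2ra*, *Il2rg* and *Il4ra* have no row under their symbols. The 5 summary lines of each table were left out, of which reads not placed uniquely made 16.4% to 30.1%.

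Genes that reached 1 CPM in 2 or more libraries were tested in edgeR (4.0.16, R 4.3.3) by quasi-likelihood with TMM scaling, all 10 libraries in 4 groups sharing 1 estimate of the spread, Benjamini-Hochberg adjustment over 12221 genes, an adjusted p threshold of 0.05 and a prior count of 0.125. The fit was tested on simulated data. Intervals are 95% and ratio bounds use a floor of 3 reads averaged over the libraries of a group, which covers counting error only. DN2a and DN2b share label dates, and deviations of libraries of 1 year from their stage means correlated with r = 0.173 over genes (0.0849 for DN1 with DN2a and 0.315 for DN1 with DN2b). Alternatives were DESeq2 (1.42.0), scaling by library size, 2 other filters, a prior count of 2, subsets of the groups, a block by year and leaving out each library. All 8 receptor genes are named, with up to 6 called genes of each pathway list by size of change and the 3 genes most like each receptor gene, except that some of these are not reported here. *Ptpn2*, *Il12rb1* and, in DN2b, *Il12rb2* and *Il27ra* were named outside this rule after their values were seen. The receptor genes and the lists were chosen with earlier results of these data known. Coordinates and exon lengths are from GENCODE vM21.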

Additional observations from a re-analysis of the deposited data

How the results depend on the processing

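Of the log2 fold changes of the 7 tested receptor genes in 5 comparisons, recomputed under each alternative, 597 kept their direction and side of the threshold, 13 lost their call, 1 gained one and 19 turned direction, all 19 for differences that were not called. These counts include *Il2ra* in the stage comparisons, where the CD25 gate fixed its difference from DN1. Under the alternatives other than leaving out a library, 4 to 5 receptor genes were called in DN1 against IgG and 3 to 5 in DN2b against IgG. In DN2b against DN2a none was called, and in DN2a and DN2b against DN1 none besides *Il2ra*. Without DN1 replicate 1 the log2 fold changes in DN1 over IgG were -2.52 for *Il7r* and -1.95 for *Il4ra*. A replicate block by label year likewise called no receptor gene besides *Il2ra* in the 3 stage comparisons. Of all genes it called 58, 233 and 0, against 32, 187 and 0 without the block in the same 6 libraries. Turned directions belonged to *Il2rg* in DN1 over IgG (-0.0213 with no filter, -0.13 with libraries D1 and D2 as the only control, -0.0475 with DESeq2, and -0.14 to 0.0675 with 1 library left out), to *Il15ra* in the same comparison (-0.53 to 0.15 with 1 left out), and in DN2a over DN1 to *Il7r* (-0.00726 by library size, -0.40 to 1.04 with 1 left out), *Il4ra* (-0.00841 and -0.28 to 0.81) and *Il21r* (-0.17 and -0.34 to 0.35). They also belonged to *Il2rg* in DN2b over DN1 by library size (-0.0291), *Il9r* there (-0.56 to 0.63 with 1 left out) and *Il4ra* in DN2b over DN2a (-0.0317 to 1.08). Scaling by library size moved the median of all genes to 0.27 in DN1 over IgG, -0.23 in DN2a over DN1 and -0.21 in DN2b over DN1. With 2 libraries a stage, levels near 3 reads such as those of *Il2rb* were not resolved at this depth. The causes were not tested.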
